A study of Mus musculus with 90 samples.

Results

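The regions described here are weak H3K4me3 peaks of mouse embryonic stem cells at which no Mll2 peak was called. They were chosen by overlap of peak lists: an autosomal peak of H3K4me3 replicate 1 was kept when it overlapped no peak of H3K4me3 replicate 3, of the Mll2 library made with serum 9172 or of the Mll2 library made with serum 9175, and 1 shared base pair counted as overlap. This left 3871 peaks, called members below, of 24978 autosomal peaks in replicate 1. Of the 24978, 6187 had no counterpart in replicate 3, and 2316 of those were then removed because an Mll2 peak touched them, 425 by serum 9172 alone, 730 by serum 9175 alone and 1161 by both. Chromosome X was left out by the rule; 167 of its 771 replicate 1 peaks would have met it otherwise. The members were split by a peak of Menin, which took no part in the choice: 1092 overlapped a Menin peak and 2779 did not.

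The study examined where Mll2 sits in embryonic stem cells and which H3K4me3 depends on it, with ChIP-seq, RNA-seq and 4C-seq in 90 samples. Peak lists of 5 ChIP-seq libraries were used. The cells are of the V6.5 line, an established mouse embryonic stem cell line, grown in serum with LIF, and their genotype is given as wild type throughout. Both H3K4me3 libraries came from cells infected with a lentiviral hairpin against GFP, a control hairpin, and used homemade antibody 28. The Mll2 libraries used homemade sera 9172 and 9175, and the Menin library a commercial antibody (Bethyl); no infection is given for these 3. Hairpin-carrying cells were thus set beside cells without a stated hairpin, with 1 library for each serum and 1 for Menin. Whether replicates 1 and 3 were grown as separate cultures is not stated in the labels. Regions of a library are not replicates of a condition, so shares below carry exact (Clopper-Pearson) 95% intervals, which cover counting error only, and no test was made.

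As background, H3K4me3 is trimethylation of lysine 4 on histone H3, a mark of active and poised promoters that at lower levels also appears at some enhancers and on the flanks of promoters. Mll2 (Kmt2b) is one of the methyltransferases that deposit it, and in embryonic stem cells it is known for bivalent promoters. Menin, the product of Men1, is a subunit of the Mll1 and Mll2 complexes and not of the Set1 complexes, which also methylate this lysine.

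Replicate 1 was the deeper H3K4me3 library, with 21936546 tags kept after removal of duplicates against 12277583 in replicate 3, while the Mll2 and Menin libraries kept from 11550409 (Menin) to 19584961 (serum 9172). A peak absent from replicate 3 was therefore absent from a library with 0.56 times the tags. Tag counts are whole ChIP tags within a peak, tags per kb divide them by the peak's width, and fold enrichment is the authors' ratio of the pile-up at the summit to the estimated background. All 3 are compared within replicate 1 only.

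By their medians, members were the narrowest and most thinly tagged of 4 classes of replicate 1 peaks. The median width was 681 bp, with quartiles of 537 and 838 bp and a range from 275 to 4597 bp. They held a median of 32 tags (16 to 308) and a median of 47.4 tags per kb, with quartiles of 41.8 and 55.8. The middle of the distribution was thus tight in density and looser in width. Median fold enrichment was 7.64, with quartiles of 6.35 and 9.53 and a range from 3.20 to 36.9. Not all members were weak by fold: 872 of them (22.5%) reached a fold of 10, and 14 were wider than 2 kb.

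The other classes of autosomal replicate 1 peaks give the scale, and these contrasts follow in part from the rule. The 2316 peaks that replicate 3 lacked but Mll2 touched were wider, at a median of 863.5 bp, with 52.6 tags per kb and a fold of 7.37. The 1890 peaks that replicate 3 shared and Mll2 did not touch had medians of 937.5 bp, 70.6 tags per kb and a fold of 12.4. The 16901 peaks with both replicate 3 and Mll2 stood far above, at 1956 bp, 234 tags per kb and a fold of 43.2. Members thus lay closest in fold and density to the Mll2-touched peaks that replicate 3 lacked, and below them in width.

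**Figure D1:**
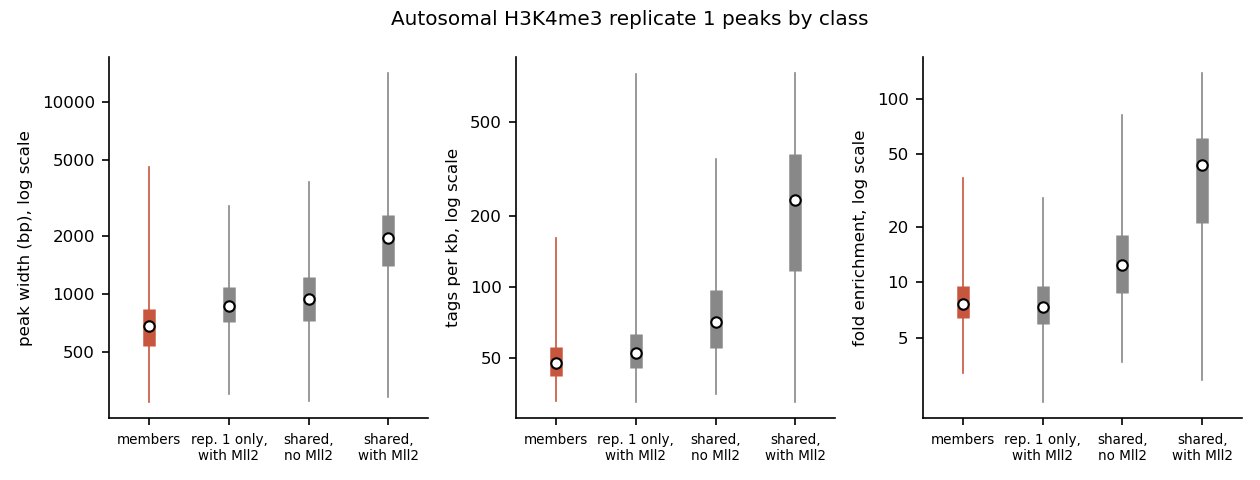
Width in bp, tags per kb and fold enrichment (all log scales) of autosomal H3K4me3 replicate 1 peaks in 4 classes, with white points for medians, thick bars for quartiles and thin lines for the full range. Members (red) have the lowest median width, 681 bp, and the lowest median tags per kb, 47.4, while their median fold of 7.64 lies beside the 7.37 of replicate 1 peaks with Mll2 that replicate 3 lacks.

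The position of the members was measured against 18336 autosomal shared H3K4me3 regions, that is, merged regions holding a peak of both H3K4me3 libraries. The median member lay 27045 bp from the nearest shared region, with quartiles of 6516.5 and 103212 bp and a farthest distance of 2947181 bp. Members under 5 kb away are called shoulders, and the rest distal. There were 842 shoulders, 21.8% of the members (95% interval 20.5 to 23.1%), and 3029 distal members. The shoulders were bunched at the edge of their neighbour: 262 of the 842 lay within 0.5 kb of it, and their median distance was 1343.5 bp. Distal members were spread over a wide range, with 385 from 5 to 10 kb, 683 from 20 to 50 kb and 198 beyond 500 kb. Of the 3871 members, 294 had another member within 5 kb, and 192 had one within 1 kb.

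Shoulders were wider than distal members, and no denser. Median width was 761.5 bp in shoulders (quartiles 617 and 937) and 658 bp in distal members (524 and 807), while the medians of tags per kb were 47.5 and 47.4. Fold ran the other way, with a median of 6.88 in shoulders and 7.94 in distal members. Across the 3871 members, Spearman's rho with distance was -0.32 for width, 0.25 for fold and 0.01 for tags per kb, given as descriptions since the peaks share a library. From 3 to 5 kb out the median width was 807 bp, from 20 to 50 kb 694 bp and beyond 500 kb 543 bp, whereas tags per kb stayed between 46.5 and 48.8 in every distance class. Isolated members were therefore shorter peaks of about the same tag density as members near shared regions. Tags per kb of called peaks have a floor, with a minimum of 32.7 in members and 32.5 in peaks with replicate 3 and Mll2. The rule also left out the denser classes, and the part of floor and rule in the even densities was not tested.

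Menin was present at 28.2% of the members (1092 of 3871, 95% interval 26.8 to 29.7%). Over all autosomal replicate 1 peaks 78.4% overlapped a Menin peak, so the members lay well below the background of their list. The share was 95.1% among peaks with replicate 3 and Mll2, 72.8% among peaks with Mll2 that replicate 3 lacked, and 38.6% among shared peaks without Mll2. The last is the other class without Mll2, and its interval (36.4 to 40.8%) lay above that of the members. Menin was thus rarer in both classes without Mll2 than in both classes with it, and the 72.8% was found at peaks whose median fold, 7.37, lay beside that of the members.

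Members with Menin were wider, with like tags per kb and a lower fold. The fold is a ratio to the estimated background, which differed between members with and without Menin as described below. Their median width was 795.5 bp, against 626 bp without Menin. Tags per kb were alike, at medians of 47.3 and 47.4 and minima of 33.1 and 32.7, so the same floor applies. Median fold was lower with Menin, at 6.88 against 7.94, and the share reaching a score of 100 (minus 10 times the log10 of the MACS p) was 39.8% with Menin and 38.5% without. The larger total of tags with Menin, a median of 38 against 29, therefore came with width and not with density.

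Members with Menin lay nearer to shared H3K4me3 than members without it. Of the shoulders 46.8% had Menin (394 of 842, 43.4 to 50.2%), and of the distal members 23.0% (698 of 3029, 21.6 to 24.6%). Members with Menin lay at a median of 8901 bp from a shared region and those without at 45144 bp. The share did not fall evenly with distance. It was 33.2% within 0.5 kb (27.5 to 39.3%), reached 61.0% from 2 to 3 kb (51.8 to 69.6%, 123 members), and was still 47.5% from 5 to 10 kb and 39.4% from 10 to 20 kb. Beyond that it dropped to 25.9% from 20 to 50 kb, 9.60% from 100 to 200 kb and 1.52% beyond 500 kb, where 3 of 198 members had Menin. The members closest to the edge of a shared region thus had Menin less often than those 2 to 3 kb away, and the intervals of these classes did not overlap.

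**Figure D2:**
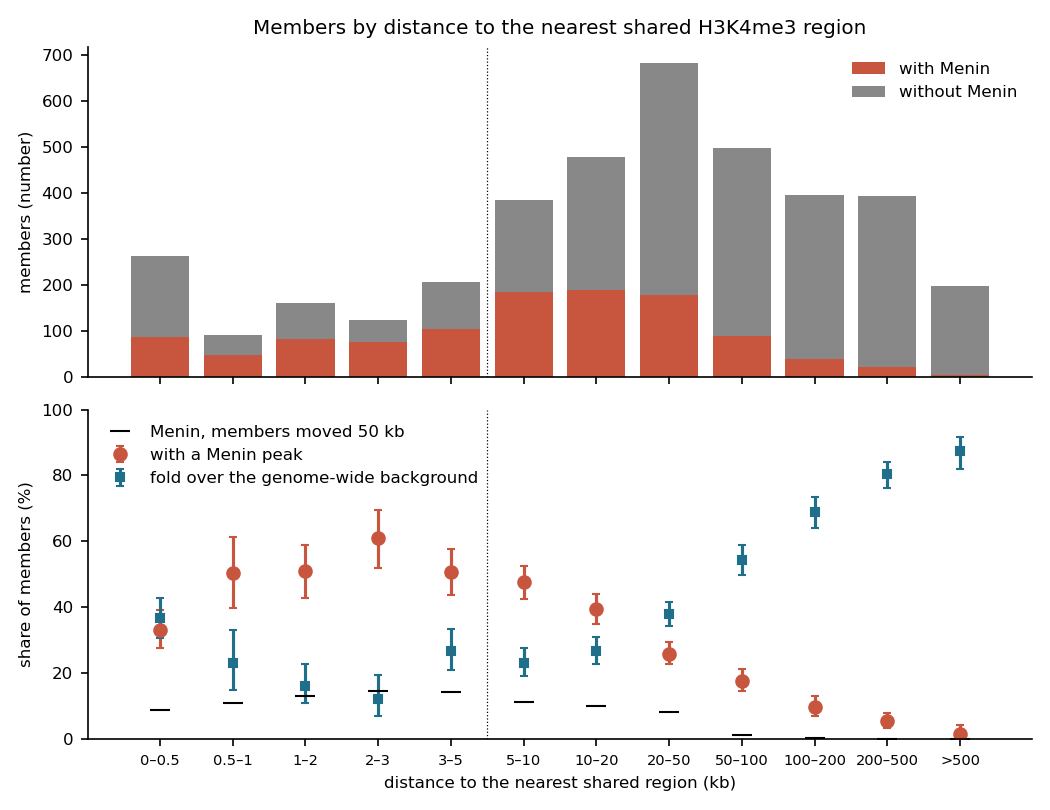
Number of members by distance in kb to the nearest shared H3K4me3 region, divided by Menin (top), and the share in percent with a Menin peak, with a fold over the genome-wide background and with Menin after a move of 50 kb to either side (bottom), with exact 95% intervals on the shares in place and a dotted line at 5 kb. Menin peaks at 61.0% from 2 to 3 kb and falls to 1.52% beyond 500 kb, where the share called over the genome-wide background is 87.4%.

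Menin peaks are themselves denser near H3K4me3 regions, so the overlap was set beside that of the same members moved as a block by fixed distances to either side. Shifted members met Menin at 4.86 to 10.0% over the 12 shifts from 5 to 500 kb, below the 28.2% in place at every shift. For distal members the mean of both sides was 6.31% at 10 kb, 5.13% at 50 kb and 4.18% at 500 kb, against 23.0% in place, a ratio of 3.65 at 10 kb and 5.52 at 500 kb. Shoulders gave 16.0% at 10 kb, 12.1% at 50 kb and 7.84% at 500 kb, against 46.8% in place, ratios of 2.92, 3.88 and 5.97. Overlap in place was thus above shifted overlap in both classes, and the excess over the 10 kb shift was 30.8 percentage points in shoulders and 16.7 in distal members. Short shifts are affected by the neighbouring regions by construction. Each 5 kb move carried the shoulders on one side of their region, 440 or 402 of the 842, toward that region and the others away from it, and 28.1% (lower coordinates) and 33.4% (higher coordinates) of all shoulders then met Menin. The same move could carry no distal member onto its shared region, and the mean was 3.58%. The 10 kb move brought some members 5 to 10 kb out onto theirs: 29.6% of these met Menin after it, against 11.2% after 50 kb, and they enter the distal mean of 6.31%.

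**Figure D3:**
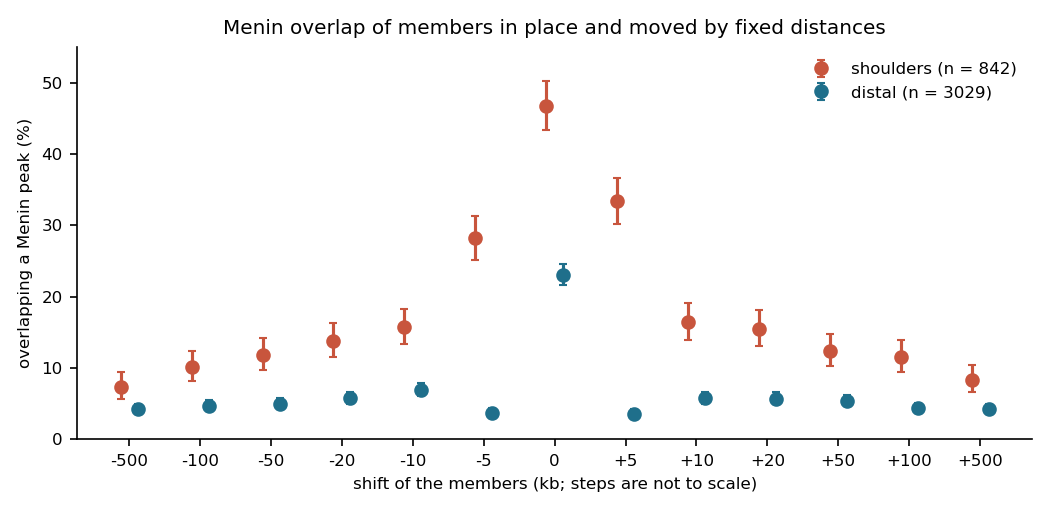
Share in percent of shoulders (red) and distal members (blue) that overlap a Menin peak in place (0) and after moves of 5 to 500 kb toward lower (minus) or higher (plus) coordinates, with exact 95% intervals. In place the shares are 46.8% and 23.0%, and every shifted share is lower, with the shoulders highest at the 5 kb moves (28.1 and 33.4%).

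Ratios of in-place to shifted overlap were also seen class by class along the distance axis. From 10 to 20 kb the 39.4% in place stood against 10.2% after a 50 kb move, and from 50 to 100 kb 17.7% stood against 1.31%. From 100 to 200 kb the values were 9.60% and 0.379%. By construction, a 50 kb move could carry no member 50 kb or farther out onto a shared region, and most shared regions had Menin. The shifted shares beyond 50 kb are thus held low. From 20 to 50 kb, where the move could reach shared regions, 25.9% stood against 8.20%. Farther out, Menin was met at the members more often than 50 kb away from them, within this limit. Only 38 members from 100 to 200 kb, 21 from 200 to 500 kb and 3 beyond had Menin.

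Width and Menin went together in shoulders and in distal members. When members were divided at the quartiles of their width, Menin was present at 7.72% of those up to 537 bp (6.12 to 9.58%), 21.9% up to 681 bp, 36.6% up to 838 bp and 46.7% of the wider ones (43.5 to 49.9%). A wider peak has more bases with which to touch a Menin peak, and the shifted shares rose too, from 2.78% in the narrowest to 9.94% in the widest class at 50 kb. The ratio of in-place to shifted overlap at 50 kb was 2.78, 4.00, 4.37 and 4.70 from the narrowest to the widest class, and at 10 kb it was 2.46, 2.83, 3.93 and 3.46, so at 10 kb the widest class lay below the one before it. Among the narrowest members shoulders had Menin at 16.7% and distal members at 6.38%, and among the widest at 58.1% and 41.2%. The gap between shoulders and distal members was thus present in every width class.

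Set beside other classes, the members' Menin share depended on the measure used to divide them, except that peaks with Mll2 lay above them by width, by fold and by tags per kb. Shared peaks without Mll2 carried Menin at 10.4, 16.7, 30.8 and 48.8% in the 4 width classes, from narrow to wide. Replicate 1 peaks with Mll2 that replicate 3 lacked carried it at 52.6, 66.8, 68.3 and 78.4%. By width the members thus lay near the shared peaks without Mll2. By fold they did not: from the lowest to the highest fold class 42.6, 27.9, 22.3 and 18.2% of members had Menin, and 58.5, 52.1, 39.2 and 34.1% of shared peaks without Mll2. The peaks with Mll2 that replicate 3 lacked had 73.9, 74.3, 73.0 and 69.9% in the same fold classes. By tags per kb the members showed no direction, with 25.6, 31.0, 30.4 and 25.8%. In the same classes of tags per kb, shared peaks without Mll2 had 33.3, 41.6, 33.6 and 39.6%. The peaks with Mll2 that replicate 3 lacked had 68.8, 76.0, 73.2 and 72.3%.

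**Figure D4:**
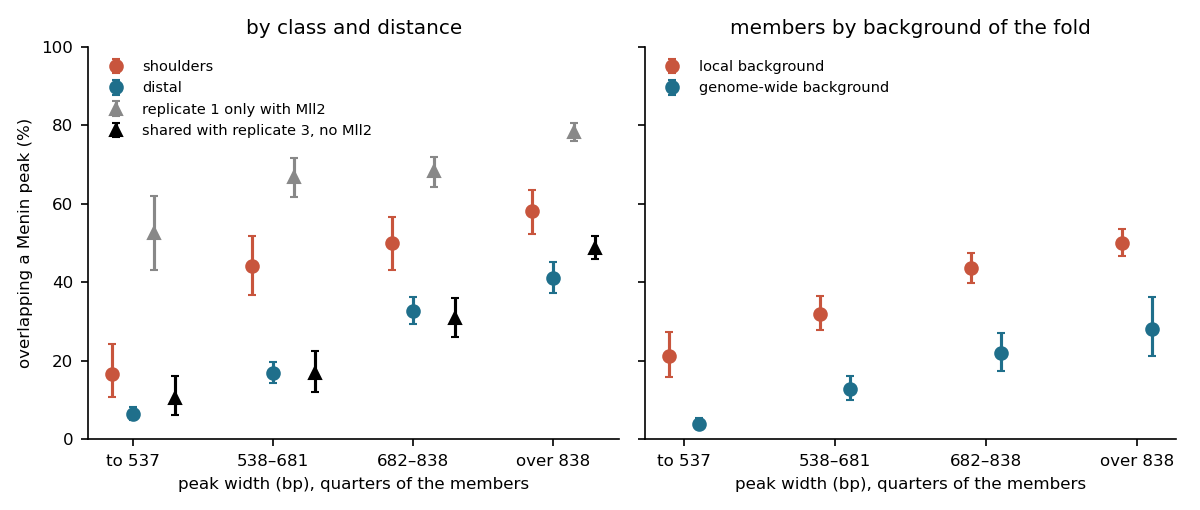
Share in percent overlapping a Menin peak by peak width in bp, divided at the members' quartiles, with exact 95% intervals, for shoulders, distal members and other classes of replicate 1 peaks (left) and for members by the background of their fold (right). The members rise from 7.72% in the narrowest to 46.7% in the widest class, and replicate 1 peaks with Mll2 lie above them in each.

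The fold values hold a trace of how each member was called. In MACS the background is the larger of a genome-wide value and local values from the input, and the genome-wide value computed from the header of replicate 1 is 1.89 tags per fragment length, so that folds over it are whole multiples of 0.529. Folds of 1721 members (44.5%) were such multiples within rounding, against 1.89% that rounding alone would place there. The share was 37.7% among shared peaks without Mll2 and 14.7% among the replicate 1 peaks with Mll2 that replicate 3 lacked. By this arithmetic the local input at these members did not exceed the genome-wide value. By distance from shared H3K4me3 the share was 36.6% within 0.5 kb, lowest at 12.2% from 2 to 3 kb, 26.8% from 3 to 5 kb and 87.4% beyond 500 kb. It was thus higher at the edge of a shared region, where Menin was at 33.2%, than 2 to 3 kb out, where Menin was at 61.0%. It was 54.6% without Menin and 18.7% with Menin, so members with Menin sat more often where the local background exceeded the genome-wide one.

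Menin overlap followed this split. Members with a fold over the genome-wide background had Menin at 11.9% (10.4 to 13.5%), and members over a local background at 41.3% (39.2 to 43.4%). Within the narrowest width class these shares were 3.84 and 21.2%, and within the widest 28.2 and 50.1%. Among distal members they were 9.28 and 36.7%, and among shoulders 30.0 and 52.5%. Moved by 50 kb, the groups gave 2.93 and 9.60%, so that the ratios of in-place to shifted overlap were 4.04 and 4.30. The difference between the groups thus extended to their surroundings. Tags per kb divided by fold, a stand-in for the background, had a median of 6.82 with Menin and 6.00 without, and whether input density has a part in the Menin overlap was not tested.

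For the members over the genome-wide background the fold also gives the height of the summit in whole tags. Their median summit held 16 tags, with quartiles of 14 and 20 and a range from 9 to 53. Scaled to the depth of replicate 3, the median is 8.95 tags, and the lowest summit that replicate 3 listed over its own genome-wide background was 7 tags, with 8 at the 5th percentile. Of these members 250 (14.5%) would fall under 7 tags and 596 (34.6%) under 8. The scaled values are expectations with counting error, and 8 tags is not a detection limit. Of all replicate 3 folds 12.2% were whole multiples over its genome-wide background, against 1.06% that rounding alone would place there. The summits behind the 7 and 8 tags may thus include some over a local background. Shared peaks without Mll2 had a median of 26 tags, or 14.6 after scaling, with 7.99% under 8, and the Mll2-touched peaks that replicate 3 lacked had 17 tags, with 33.1% under 8. For members over a local background this count cannot be read from the fold, and the part of depth in the absence of members from replicate 3 was not tested.

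**Figure D5:**
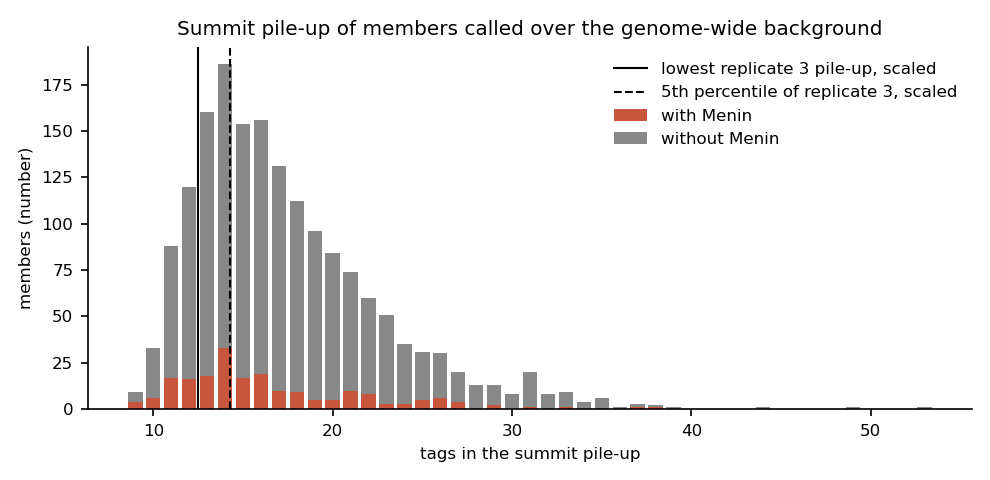
Number of members by tags in the summit pile-up, for the 1721 members whose fold is over the genome-wide background, divided by Menin. The solid and dashed lines mark the lowest summit (7 tags) and the 5th percentile (8 tags) of replicate 3 scaled to the depth of replicate 1, with 250 members left of the solid line and 596 left of the dashed line.

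The Menin peaks at the members were themselves of modest strength. There were 1132 of them in 1137 pairs with members, with a median fold of 8.94 and a median width of 738.5 bp. A score of 100 was reached by 43.6%, against 51.1% of all autosomal Menin peaks and 85.6% of those at H3K4me3 peaks with replicate 3 and Mll2. The value was 58.5% at shoulders and 35.1% at distal members. The Menin summit lay inside the member in 83.0% of pairs, at a median of 175 bp from the H3K4me3 summit (quartiles 78 and 354). Pairs were chosen by overlap of short peaks, which by itself keeps summits close. The median offset was 158 bp at distal members and 208 bp at shoulders. Menin fold did not follow H3K4me3 fold among the 1092 members, with a Spearman's rho of 0.02 that is given as a description.

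Few of these Menin peaks reached across to a neighbouring mark. Of the 1132 Menin peaks 76 (6.71%) also touched a shared H3K4me3 region, a replicate 3 peak or an Mll2 peak. At shoulders this was 63 of 414 (15.2%), and at distal members 13 of 718 (1.81%).

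The regions beside the shoulders were like other shared regions in median width, more spread in width, and somewhat poorer in Mll2 and Menin. They numbered 804, of which 767 had 1 shoulder, 36 had 2 and 1 had 3, and 12 had shoulders on both sides. Their widths had 5th and 95th percentiles of 483 and 4620 bp, against 822 and 3930 bp in shared regions without a shoulder. The regions beside shoulders had a median width of 1985.5 bp and a median replicate 1 fold of 35.4, and the 17532 autosomal shared regions without a shoulder had 1915 bp and 39.7. Mll2 was present at 83.5% of them against 90.2%, and Menin at 82.2% against 89.7%. Shoulder and neighbour had Menin together: 55.1% of the shoulders beside a region with Menin carried it (377 of 684, 51.3 to 58.9%), and 10.8% of those beside a region without Menin (17 of 158, 6.39 to 16.7%). By Mll2 of the neighbour the shares were 51.9% and 21.7%.

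Mll2 itself was often close although it touched no member. An Mll2 peak of either serum lay within 1 kb of 306 members and within 5 kb of 1031. The 325 distal members with an Mll2 peak within 5 kb had Menin at 51.1% (45.5 to 56.6%), a share like that of the shoulders, and the other 2704 distal members at 19.7% (18.2 to 21.2%). Where the nearest Mll2 peak was 100 kb away or farther, 33 of 809 members (4.08%) had Menin. Among distal members, those near Mll2 thus had Menin more often than the others, as did shoulders beside a region with Mll2.

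A fold of 10 was reached by 152 of the 1092 members with Menin and by 720 of the 2779 without, and the 4 highest folds of all had none. No Menin peak overlapped 71.8% of all members. Coordinates are those of build mm9 as deposited, and gene annotation was not used here. The member with the highest fold, 36.9, was chr9:120072893-120073843, with 124 tags over 951 bp. It lay 19771 bp from a shared region, with an Mll2 peak 3230 bp and a Menin peak 3325 bp away, so both proteins were nearby without touching it. Next came chr3:140388887-140389844, at a fold of 29.9 and 105 tags, which was isolated, with the nearest shared H3K4me3 region, Mll2 peak and Menin peak 737404 to 737736 bp away. At chr6:124435190-124436519, with a fold of 29.6 and 180 tags, a Menin peak lay 316 bp from the end of the member, just outside the overlap. The densest member, chr4:124033760-124034700, held 152 tags in 941 bp, or 162 tags per kb, with a fold of 25.9 and a score of 1145, and its nearest Menin peak was 5889 bp away. The strongest sites thus ranged from neighbours of Mll2 and Menin to fully isolated peaks.

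Of the distal members with a fold of 10 or more, 108 had Menin and 637 did not, beside 698 with and 2331 without among all distal members. The highest with Menin was chr12:87646155-87647065, with a fold of 26.9, 95 tags and a Menin peak of fold 6.71 whose summit was 543 bp from the H3K4me3 summit. At chr10:94915063-94916346, 161 tags gave a fold of 18.6, the Menin fold was 10.9 with summits 150 bp apart, and an Mll2 peak lay 2156 bp away. Another member, chr10:94922722-94924092, stood 6376 bp from it with 181 tags and no Menin. The farthest member with Menin, chr1:27089183-27089900, was 1201122 bp from shared H3K4me3, with an H3K4me3 fold of 12.2, a Menin fold of 10.1 and summits 4 bp apart. The second farthest, chr8:103631111-103632077 at 746069 bp, had folds of 11.1 and 6.71 and summits 11 bp apart. The third, chr10:54339576-54340206 at 543058 bp, had folds of 11.7 and 6.71, with summits 443 bp apart. All 3 had H3K4me3 folds above the members' upper quartile of 9.53, and in 2 of them the summits nearly coincided.

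Among the shoulders, the highest fold belonged to chr17:28495158-28496509, with 139 tags, a fold of 24.6 and a Menin peak of fold 15.3 at 74 bp from its summit. It was stronger than the shared region 2703 bp from it, whose replicate 1 fold was 5.02, so the name shoulder describes its place and not its rank. The highest without Menin was chr11:97455340-97456582, at a fold of 20.6, beside a region of fold 70.2 that had Mll2 and no Menin. The widest member of all, chr9:97003656-97008252, was also a shoulder, 4597 bp long with a fold of 8.78 and ending 65 bp before a region of fold 74.2. It was far wider than most, since 4 of the 842 shoulders exceeded 2 kb. The region with 3 shoulders, chr1:90997297-90999792, had a fold of 20.1 and neither Mll2 nor Menin, and its shoulders at 226, 963 and 2551 bp had folds of 14.8, 11.1 and 8.47. None of the 3 had Menin, and their fold fell with distance from the region.

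Members just inside the rule had about the density and fold of peaks just outside it and were narrower. The 50 members with a replicate 3 or Mll2 peak within 100 bp had medians of 648 bp, 47.5 tags per kb and a fold of 7.38, and the 27 autosomal peaks excluded by an overlap of at most 100 bp had 803 bp, 47.1 and 6.88. Menin was at 15 of the 50 and 17 of the 27. On the near side of the 5 kb limit, members from 4 to 5 kb had Menin at 52.8% (56 of 106, 42.9 to 62.6%). Beyond it, members from 5 to 6 kb had Menin at 44.9% (35 of 78, 33.6 to 56.6%). The intervals overlapped, and with these counts they are too wide to show whether a step lay at the limit.

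The members were spread over all 19 autosomes. They made up from 11.6% of replicate 1 peaks on chromosome 11 to 19.3% on chromosome 14, with a median of 16.2%. The Menin share of the members varied more, from 18.0% on chromosome 1 to 40.4% on chromosome 11, with a median of 25.3%. Chromosome 11 was thus lowest in the share of members and highest in Menin at them. Its Menin interval (34.0 to 47.2%) overlapped that of chromosome 7 (37.1%, 30.8 to 43.6%). Shoulders made up 29.8% of its members and 33.2% of those on chromosome 7, against a median of 20.7% over the autosomes. Whether this bears on the Menin shares was not tested. The Menin share over all replicate 1 peaks of each chromosome is not given here, so the shares by chromosome have no background beside them.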

How the data were processed

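Peaks were called by the authors with MACS 1.4.2, per the file headers, per library and with 1 input each, at a p cutoff of 1e-05, on build mm9 per the submitters' processing notes. The deposited tag count is a whole number of ChIP tags per peak, the deposited fold is the ratio of summit pile-up to estimated background, the deposited score is minus 10 times the log10 of the p, and the deposited FDR is a percent, at most 0.95% in H3K4me3 replicate 1. Both Mll2 libraries had the same input. Files were read with Python 3.11.15 and pandas 2.3.3, and the overlap and distance steps were checked on simulated intervals. Intervals are Clopper-Pearson at 95% from scipy 1.17.1. Distances are gaps in bp between region ends, and a shift moves all members by the same distance. The split by fold step was added after the data were seen. The named regions are the 5 highest folds in each class by distance and Menin, the 3 widest, the 3 densest and the 3 farthest with Menin, and the text gives a selection of them. The members and the lists were chosen with earlier results of these data known. Sequence and gene annotation were not used here.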

Additional observations from a re-analysis of the deposited data

How the results depend on the processing

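Shoulders had Menin more often than distal members under all 17 settings that gave both shares, and 24 of the 58 alternative shares stayed within the counting interval of the reported share. The number of members ran from 1505 to 5761, the latter without H3K4me3 replicate 3. Values below are the Menin share of all members, of shoulders and of distal members, against 28.2, 46.8 and 23.0%, unless named otherwise. A gap of 1 kb to any replicate 3 or Mll2 peak gave 26.2% of all members and 51.3% of shoulders, and 14.2% of members were shoulders, against 21.8%. A member score of at least 100 left 1505 members. With serum 9172 alone in the rule the shares were 34.2, 54.0 and 28.4%, and with serum 9175 alone 31.5% of all and 26.3% of distal members. Without H3K4me3 replicate 3 there were no shared regions, so distances were taken from replicate 1 peaks touched by both Mll2 sera. The shares were then 31.6, 57.3 and 26.2%, with 17.4% shoulders, and shoulder has another meaning in this setting. Menin peaks with a score of at least 100 gave 12.7, 28.3 and 8.35%, those with a fold of at least 10 gave 9.25, 18.2 and 6.77%, and those with the summit inside the member 24.2, 36.7 and 20.7%. Leaving out Menin peaks that also touched other marks gave 26.6% of all members and 40.6% of shoulders. Ending shoulders at 2 kb made 13.3% of members shoulders, with Menin at 41.8% of them and 26.1% of distal members, and ending them at 10 kb made 31.7% shoulders, with 19.5% of distal members. Members on the fold step had 11.9, 30.0 and 9.28%, and members off it 41.3, 52.5 and 36.7%. Fewer Menin peaks or another set of members enter these settings by construction, and otherwise the cause was not tested. Replicate 1 could not be left out, since the members are its peaks. Depth limits every absence here, because a site without a peak in a library is not shown to lack the mark or protein.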

Other observations

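The same rule was applied with the H3K4me3 libraries exchanged. It gave 239 autosomal replicate 3 peaks without a replicate 1 or Mll2 peak, against the 3871 members. Their median width was 551 bp and their median fold 8.22, and 27.2% lay under 5 kb from a shared H3K4me3 region (95% interval 21.7 to 33.3%). A Menin peak overlapped 37.7% of them (90 of 239, 31.5 to 44.1%). The Menin share over all autosomal replicate 3 peaks is not given here, so this value has no background beside it. Replicate 3 was the shallower library, so the counts of 239 and 3871 come from unlike depths.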
